A study of Mus musculus with 4 samples.

Results

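The Igfbp2-high AT1 cells are the 578 cells of the newborn (P3) AT1 library that carried the most Igfbp2 mRNA. They were chosen from cells whose Ager level, the transcript of an AT1 membrane receptor, reached at least 0.5 times the library's median of 16376 CPM (transcripts of the gene per 1000000 counted). The minimum was thus 8188 CPM, and 2891 of 3149 cells met it. The 20% of these with the highest Igfbp2 form the Igfbp2-high cells, and they were set against the 464 Ager-passing cells in which no Igfbp2 transcript was counted although at least 6000 transcripts were, called Igfbp2-zero below. Of the other 1849 Ager-passing cells, 1525 held less Igfbp2 than the high cells and 324 held none at a shallower depth. The whole series holds 9519 cells. Because Igfbp2 and Ager chose the cells, their levels are descriptions here, and every gene of the P3 library is described without a test, since a single library holds both sets and its cells are not replicates.

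Alveolar type I (AT1) cells are the thin epithelial cells across which gas exchange takes place, while AT2 cells, their cuboidal neighbours, secrete surfactant. The cells came from mice of a mixed FVB/C57BL6 strain that carried Sftpc-CreER, which drives an inducible recombinase in AT2 cells, with the Rosa26-Zsgreen lineage reporter and the Hopx-RFP reporter, and all mice had been given 1 to 2 doses of tamoxifen. The AT1 libraries, at postnatal days 3, 15 and 60 (P3, P15 and P60), hold cells sorted as positive for RFP and Pdpn and negative for the green label and CD45, so Hopx and Pdpn belong to the gate itself. The AT2 library at P60 holds cells positive for the green label and negative for CD45. AT1 lungs were dissociated with neutral protease, elastase, collagenase and DNase before sorting. Each of these 4 groups is 1 library made with the 10x 3' protocol, in which unique molecular identifiers (UMIs) count transcripts, and the sources used here do not give how many animals went into each. The libraries held 1337 to 3149 cells with medians of 4864 to 7477 UMIs per cell, the deepest being P3, and any pair of libraries shared 3 to 15 cell barcodes.

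Igfbp2 encodes a secreted protein that binds insulin-like growth factors and holds them away from, or delivers them to, their receptor. It is a known marker of mature AT1 cells in mouse lung. The genes set beside it belong to a matrix-building repertoire: Ctgf encodes a matricellular protein and is a standard target of the mechanosensitive co-activators YAP and TAZ, Plod2 hydroxylates lysines of collagen for crosslinking, Pcolce enhances the cleavage that lets procollagen assemble, Lox crosslinks collagen and elastin, and Bdnf is a secreted neurotrophin. YAP and TAZ act through TEAD factors, which recognise GGAATG.

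Igfbp2 lies on chromosome 1 from 72824503 to 72852474 on the plus strand of GRCm38 in the GENCODE annotation, Plod2 on chromosome 9 from 92542223 to 92608428 on the plus strand, Pcolce on chromosome 5 from 137605103 to 137613784 on the minus strand and Bdnf on chromosome 2 from 109674700 to 109727007 on the plus strand. Ctgf, annotated there as Ccn2, lies on chromosome 10 from 24595442 to 24598683 on the plus strand. The promoter windows of genes that were higher in Igfbp2-high cells are printed to show what sequence they do and do not share. Each runs 5′ to 3′ along its gene over 300 bases of RefSeq GRCm38.p6, from 250 before to 50 after a transcription start, and capitals mark 2 motifs on either strand, the TEAD letters above and the GC box GGGCGG that SP1 recognises.
Igfbp2 promoter (window 1 of 2), chr1:72824230-72824529, plus strand: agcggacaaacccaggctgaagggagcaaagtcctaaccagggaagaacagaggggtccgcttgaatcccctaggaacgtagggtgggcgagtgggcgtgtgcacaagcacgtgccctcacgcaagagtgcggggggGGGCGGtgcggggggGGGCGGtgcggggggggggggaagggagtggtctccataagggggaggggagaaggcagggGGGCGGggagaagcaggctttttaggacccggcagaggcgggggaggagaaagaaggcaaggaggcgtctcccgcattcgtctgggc
Pcolce promoter (window 1 of 1), chr5:137611355-137611654, minus strand: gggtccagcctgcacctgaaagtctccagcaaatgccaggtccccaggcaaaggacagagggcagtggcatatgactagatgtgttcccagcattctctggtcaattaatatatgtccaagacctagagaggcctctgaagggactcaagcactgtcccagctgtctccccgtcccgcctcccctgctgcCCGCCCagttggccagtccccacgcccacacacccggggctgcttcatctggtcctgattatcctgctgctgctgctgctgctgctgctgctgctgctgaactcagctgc
Kcne2 promoter (window 1 of 2), chr16:92292139-92292438, plus strand: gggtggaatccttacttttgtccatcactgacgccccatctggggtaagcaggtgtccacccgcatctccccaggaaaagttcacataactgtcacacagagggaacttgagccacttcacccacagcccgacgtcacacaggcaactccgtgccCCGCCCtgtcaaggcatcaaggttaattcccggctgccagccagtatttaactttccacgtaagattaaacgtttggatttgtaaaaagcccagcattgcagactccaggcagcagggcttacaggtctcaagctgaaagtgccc
Bdnf promoter (window 7 of 7), chr2:109722671-109722970, plus strand: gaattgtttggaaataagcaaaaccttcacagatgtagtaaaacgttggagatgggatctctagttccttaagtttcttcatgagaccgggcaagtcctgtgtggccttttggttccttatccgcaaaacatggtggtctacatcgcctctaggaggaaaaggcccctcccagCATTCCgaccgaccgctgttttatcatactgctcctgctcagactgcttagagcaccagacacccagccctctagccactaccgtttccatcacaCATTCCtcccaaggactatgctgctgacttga
Cald1 promoter (window 1 of 2), chr6:34598254-34598553, plus strand: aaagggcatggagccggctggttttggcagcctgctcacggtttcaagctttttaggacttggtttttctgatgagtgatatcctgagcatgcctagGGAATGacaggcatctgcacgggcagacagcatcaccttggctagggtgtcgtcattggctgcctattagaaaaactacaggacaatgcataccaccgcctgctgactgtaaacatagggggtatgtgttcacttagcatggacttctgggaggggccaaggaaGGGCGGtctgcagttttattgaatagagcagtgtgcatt

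In the windows printed, Igfbp2 had 3 GC boxes and 0 TEAD matches, Pcolce and Kcne2 each had 1 GC box and 0 TEAD matches, Bdnf window 7 had 2 TEAD matches and 0 GC boxes, and Cald1 window 1 had 1 of each. The second windows of Igfbp2, Kcne2 and Cald1 held 0 of both motifs. Window 7 of Bdnf was picked for its TEAD matches: of the other windows of Bdnf, window 2 held 1 TEAD match and the rest 0. Across the 64 windows of the 43 genes matched among the 61 that were at least 1.5-fold higher, 10.9% held the TEAD letters, against 14.7% of all 32851 windows of the genome table. The GC box was in 59.4% of the windows of the higher genes, in 42.5% of the 40 windows of the lower genes, in 65.8% of the 3073 windows of all counted genes and in 35.7% of the genome's windows. The TEAD letters were in 11.9% of the windows of all counted genes. Both motifs were thus no more frequent among the higher genes with a window than among all counted genes with a window. Ctgf, Plod2 and Fjx1 had no window, so these shares do not cover them. The AP-1 letters TGANTCA, searched likewise on either strand, were in 15.6% of the windows of the higher genes, or 10 of 64. They were in 5% of the windows of the lower genes, against 4.95% over all counted genes and 7.81% over the genome. The HIF letters ACGTG and the NKX2-1 letters CTCAAG were searched too. HIF letters were in 23.4% of the windows of the higher genes, 17.5% of the lower and 27.7% of all counted genes. For the NKX2-1 letters these shares were 15.6%, 10% and 14.03%. AP-1 thus stood out among several motifs searched, and its share was not tested. These shares are descriptions, and several windows can belong to 1 gene.

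Igfbp2 formed a continuum in the P3 library, without a gap at the boundary. The lowest Igfbp2-high cell had 1040.04 CPM and the highest cell outside had 1039.86 CPM. Within the Igfbp2-high cells the level ran from 1040 to 6296 CPM with a median of 1668, which corresponds to 4 to 75 UMIs and a median of 13 per cell. At the other edges, the Ager-passing cell nearest the minimum had 8192 CPM of Ager and the nearest excluded cell 8141, and the shallowest Igfbp2-zero cell had 6001 UMIs while the deepest left out had 5997.

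**Figure D1:**
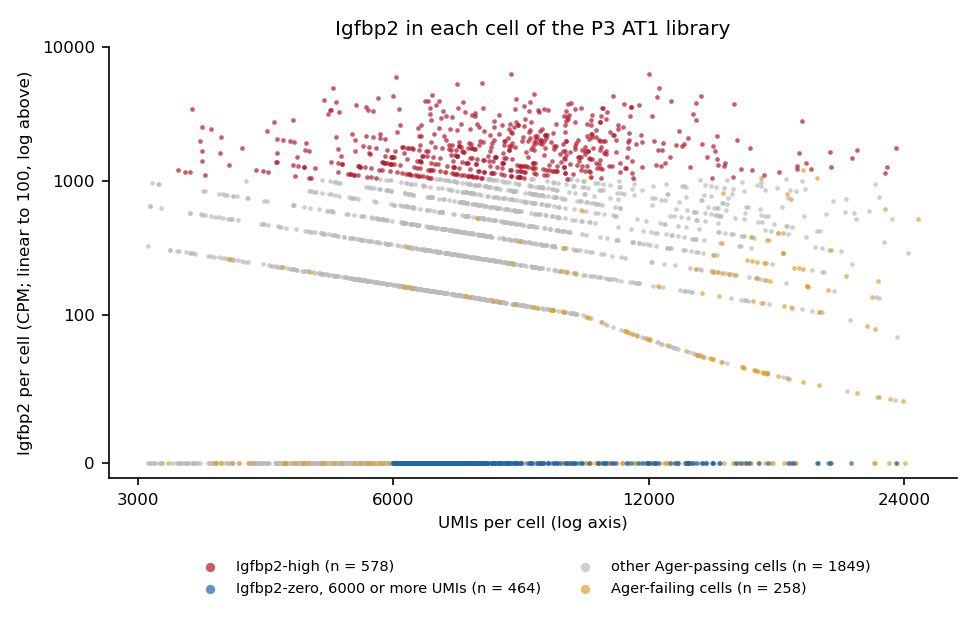
Igfbp2 level (CPM, linear to 100 and log above) against total UMIs (log axis) for each of the 3149 cells of the P3 library. The 578 Igfbp2-high cells start at 1040 CPM with no gap to the cells below, and the 464 Igfbp2-zero cells lie at 0 from 6001 UMIs upward.

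Both sets carried AT1 markers, including some that had no part in choosing the cells. Of 10 AT1 markers all 10 were detected in each set, with a summed level of 28426 CPM in Igfbp2-high and 28645 CPM in Igfbp2-zero cells, against 5125 CPM in the 258 cells that failed the Ager minimum. This sum includes Ager, which chose the cells, and Hopx and Pdpn of the gate, so it is no check of the label. Ager stood at 16579 and 16830 CPM, Aqp5, the alveolar water channel, at 1815 and 1775 CPM, and Cav1, the caveola protein, at 624 and 622 CPM in high and zero cells. The Ager-failing cells had 2479 CPM of Ager, 313 CPM of Aqp5 and 178 CPM of Cav1. Hopx, a homeodomain protein of AT1 cells, had 926 CPM in high and 1023 CPM in zero cells, and Pdpn, the membrane glycoprotein used in the gate, 916 and 750 CPM. Both sets thus carried the AT1 markers at close levels.

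AT2, club and ciliated markers had close sums in the sets. AT2 markers summed to 1359 CPM in high and 1434 CPM in zero cells (10 of 10 detected in each), of which Sftpc gave 891 and 879 CPM. Some other AT2 markers were lower in high cells, with Slc34a2 at 19.4 and 43.9 CPM in high and zero cells and, named after their values were seen, Sftpd at 76.4 and 112 CPM and Sftpb at 110.1 and 141 CPM. Club markers summed to 1050 and 1013 CPM (3 of 5 listed), ciliated markers to 1742 and 1592 CPM (9 of 9), and fibroblast markers to 10.4 and 8.03 CPM (7 and 5 of 7 listed, with Dcn and Pdgfra at 0 in zero cells). Endothelial markers summed to 11.6 and 42.6 CPM (8 of 8 in each), pericyte or smooth muscle markers to 3.47 and 0.535 CPM (5 and 1 of 6 listed, with Pdgfrb at 0 in both sets), immune markers to 102 and 30.8 CPM (7 and 6 of 8 listed, Laptm5 at 0 in high cells, Ptprc and Cd52 at 0 in zero cells), and the single listed mesothelial marker to 643 and 588 CPM. A single basal marker was listed, at 1.83 and 4.28 CPM, erythroid and platelet markers summed to 19.98 and 21.1 CPM (6 of 6 listed in each), and no neuroendocrine marker was listed. The part of the endothelial and immune markers in the results was not tested. Cells with UMIs of at least 3 markers of another type made up 43.9% of high and 44.8% of zero cells, against 92.6% of the Ager-failing cells. Of the fibroblast collagen transcripts, Col1a1 had 2.24 CPM in high and 1.61 CPM in zero cells, against 195 CPM in the Ager-failing cells. Col1a2 had 1.22 and 1.87 CPM and Col3a1 0.815 and 1.07 CPM in high and zero cells. The part of fibroblast or smooth muscle transcripts in the collagen-related genes described below was not tested.

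The sets differed in depth, in quality measures and in sex-linked transcripts. High cells had a median of 8098 UMIs (3341 to 23465, 104 cells under 6000) and 2675 genes, and zero cells 7156.5 UMIs and 2447.5 genes. Mitochondrial transcripts took 2.54% and 1.87%, ribosomal protein transcripts 19.8% and 21.0%, and Malat1 3.65% and 4.51% of UMIs. Xist, transcribed from the inactive X chromosome of females, had 397 CPM in high and 224 CPM in zero cells, and Y-linked transcripts summed to 32.6 and 59.2 CPM. Among high cells, 275 held Xist and no Y-linked UMI and 84 the reverse (76.6% Xist-carrying of these), and among zero cells 151 and 122 (55.3%). The P3 library thus held transcripts of both sexes, whereas Xist stood at 0.779 and 4.67 CPM in the P15 and P60 AT1 libraries. The part of these differences in the results was not tested, and values within the Xist-carrying and within the Y-carrying cells follow below.

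All 5 genes named beside Igfbp2 were higher in Igfbp2-high cells, by 1.8 to 3.7 times. Ctgf had 591 CPM in high cells and 233 CPM in zero cells, a ratio of 2.54 (95% interval 2.35 to 2.74, exact Poisson, counting error only, as for all intervals of ratios here). Bdnf, the rarest of them, had the largest ratio, with 68.5 CPM in high and 18.5 CPM in zero cells (3.71, 2.85 to 4.88). The collagen lysine hydroxylase Plod2 had 141 and 51.9 CPM (2.71, 2.31 to 3.20), and the crosslinking enzyme Lox 132 and 50.3 CPM (2.63, 2.23 to 3.11). Pcolce had 162 and 89.1 CPM, the smallest ratio of the 5 (1.82, 1.60 to 2.08). These genes were picked from this same library, so their direction is a description and no support for it.

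The higher levels were spread over many cells. The 5 cells richest in each transcript held 4.45% of the Ctgf UMIs of the high cells, 6.08% of the Plod2, 4.77% of the Pcolce, 9.23% of the Bdnf and 4.78% of the Lox UMIs. With every cell thinned to 3000 UMIs, Ctgf was detected in 68.2% of high cells (64.2 to 71.9, exact binomial) and 39.7% of zero cells (35.2 to 44.3). Plod2 was detected in 32.0% and 13.6%, Lox in 32.7% and 14.7%, Pcolce in 37.4% and 22.8%, and Bdnf in 15.4% and 5.17% of high and zero cells. Before thinning the shares were 87.4% and 62.5% for Ctgf and 28.5% and 10.3% for Bdnf. In the AT2 library, thinned alike from a median of 5089 UMIs, Ctgf was seen in 0.486% and Pcolce in 2.43% of 1853 cells, and Plod2, Bdnf and Lox in 0 of them, which allows up to 0.199% (exact binomial). Among transcripts of other cell types, the club cell transcript Scgb1a1 was detected in 96.5% of high and 96.8% of zero cells, and the AT2 transcript Sftpc in 44.5% and 44.6%. Free RNA was not measured, and its part in the shares was not tested.

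Whether the 5 genes met in the same cells more often than the shares of the single genes give was not tested. At 3000 UMIs per cell, 145 of 578 high cells (25.1%, 21.6 to 28.8) held UMIs of at least 3 of the 5, against 20 of 464 zero cells (4.31%, 2.65 to 6.58). Cells between the sets fell in between, with 204 of 1849 (11.03%). No UMI of any of the 5 was seen in 53 high cells (9.17%) and 163 zero cells (35.1%), so no single member of the group was present in every high cell at this depth.

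Beyond these 5, few genes differed at this size. Of 2966 genes with at least 50 CPM in the higher set and 30 UMIs over both, 61 including Igfbp2 were at least 1.5-fold higher in Igfbp2-high cells (2.06% of the counted genes) and 35 at least 1.5-fold lower (1.18%). At 2-fold the counts were 19 and 5. The median gene had a log2 ratio of 0.03.

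**Figure D2:**
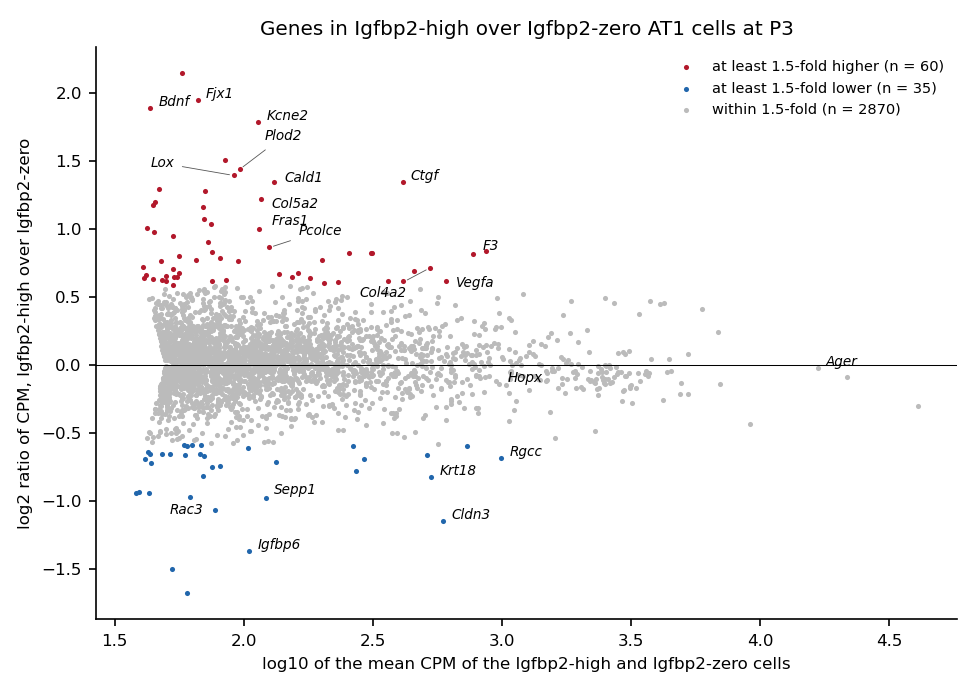
Log2 ratio of CPM, Igfbp2-high over Igfbp2-zero cells at P3, against log10 of the mean CPM, for the counted genes other than Igfbp2. The 60 genes at least 1.5-fold higher are red and the 35 at least 1.5-fold lower are blue, with Fjx1, Bdnf and Kcne2 near the top and Ager at a ratio near 1.

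Among genes with at least 100 CPM in the higher set, the largest ratios after those above were spread over signalling, membrane and matrix genes. Fjx1, the mouse homologue of the fly kinase gene four-jointed, had 105 CPM in high and 27.3 CPM in zero cells (ratio 3.86, 3.12 to 4.82). Kcne2, a potassium channel beta subunit, had 176 and 51.1 CPM (3.45, 2.94 to 4.05). It was also found outside AT1 cells: the Ager-failing cells of P3 had 142 CPM and the AT2 library 68.9 CPM. H2-Q1, a class I histocompatibility gene, had 125 and 43.9 CPM (2.85, 2.39 to 3.40), but its family is near-identical in sequence and varies between mouse strains, so its reads may be split among paralogs in this mixed strain. Cald1, the actin-binding protein caldesmon, had 189 and 74.1 CPM (2.54, 2.22 to 2.92). Col5a2, a chain of fibrillar collagen V, had 163 and 69.9 CPM (2.33, 2.02 to 2.69). Colgalt1, which adds galactose to collagen, and Fras1, a matrix protein of epithelial basement membranes, had 100.3 and 49.0 CPM (2.05, 1.72 to 2.44) and 152 and 76.3 CPM (2.00, 1.74 to 2.30).

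Collagen-modifying genes were higher in larger number than genes at large. This list, like those below, was chosen with earlier results of these data known, so the comparison with all genes is a description. Of 28 listed genes for collagen modification and crosslinking, 20 had at least 30 UMIs over both sets, 10 were at least 1.5-fold higher in high cells and 0 lower, with a median log2 ratio of 0.60. Without Plod2, Pcolce and Lox the counts were 7 of 17 with a median of 0.50, against 5.9% higher, 4.16% lower and a median of 0.04 over all 9720 genes at that depth. P4ha3, a prolyl hydroxylase subunit, had 56.5 CPM in high and 28.1 CPM in zero cells (ratio 2.01, 1.60 to 2.54). Serpinh1, the collagen chaperone, and Sparc, a collagen-binding matricellular protein, are named here after their values were seen. They stayed under the 1.5-fold size, with 510 and 367 CPM and 6811 and 5116 CPM. All but 1 of the 20 had a ratio above 1, the exception being P4ha2 at 8.36 CPM in high and 10.7 CPM in zero cells, whose interval (0.492 to 1.24) includes 1.

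Basement membrane genes were in part higher, by smaller ratios. Of 20 measured members, 5 were at least 1.5-fold higher in high cells and 0 lower (median log2 ratio 0.42), and 18 had a ratio above 1. Over all genes at that depth 5.9% were higher and 4.16% lower (median 0.04), and 5400 of 9720 had a ratio above 1. The collagen IV chains Col4a1 and Col4a2, which share a promoter region head to head, had 564 CPM in high and 350 CPM in zero cells (ratio 1.61, 1.51 to 1.72) and 653 and 398 CPM (1.64, 1.54 to 1.75). The laminin gamma chain Lamc1 had 188 and 120 CPM (1.57, 1.40 to 1.76).

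Genes known as YAP and TAZ targets were higher for some members only. Of 21 measured, 7 were at least 1.5-fold higher and 0 lower, and 6 of 20 without Ctgf, with a median log2 ratio of 0.30. The shares over all genes were 5.9% higher and 4.16% lower, with a median of 0.04. Beside Fjx1, these included F3, the tissue factor that starts coagulation, with 981 CPM in high and 558 CPM in zero cells (ratio 1.76, 1.67 to 1.85), and Nt5e, the ectonucleotidase CD73, with 66.5 and 27.0 CPM (2.46, 1.96 to 3.10). Ankrd1, a frequent YAP reporter and named here after its values were seen, was also among the 7, at a low level of 18.8 CPM in high and 6.42 CPM in zero cells (ratio 2.92, 1.85 to 4.79). Cyr61, a relative of Ctgf in the same protein family and also named after its values were seen, had 1038 and 854 CPM, a log2 ratio of 0.28, against 1.35 for Ctgf.

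A few ligands that act on vessels were higher. Among 25 measured growth factors and guidance cues, 4 were at least 1.5-fold higher and 2 lower, and without Bdnf 3 of 24 were higher and 2 lower (median log2 ratio 0.13), against 5.9% higher and 4.16% lower over all genes. Sema3e, a repulsive cue for vessels, had 401 CPM in high and 226 CPM in zero cells (ratio 1.77, 1.63 to 1.92), Vegfa, the vascular growth factor, 731 and 477 CPM (1.53, 1.45 to 1.62), and Pdgfb, a ligand for mural cells, 82.1 and 48.2 CPM (1.71, 1.43 to 2.04). The 20 hypoxia response genes did not move as a block, with 3 of 18 measured higher and 3 lower, and those higher were Plod2, Lox and Vegfa. Bnip3, a mitochondrial protein of the same list, had 31.8 CPM in high and 48.4 CPM in zero cells.

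In the insulin-like growth factor axis, no measured member beside Igfbp2 reached the 1.5-fold size upward. With 10 such members, these counts cannot be told from those of all genes. Counting Igfbp2, 7 of 11 had a ratio above 1, and the median log2 ratio without it was 0.08. Against 5.9% higher and 4.16% lower over all genes, 0 of 10 measured members other than Igfbp2 were at least 1.5-fold higher and 1 was lower. The lower member was Igfbp6, a binding protein that prefers IGF-II, with 58.5 CPM in high and 151 CPM in zero cells. This was 2.58-fold lower (2.23 to 2.98) and the largest ratio downward among the genes with at least 100 CPM in the higher set that were named by size. The receptor gene Igf1r had 282 and 199 CPM (ratio 1.42, 1.297 to 1.55), the clearance receptor Igf2r 22.8 and 18.7 CPM (1.22, 0.896 to 1.67), and Igfbp7, named after its values were seen, 2329 and 1952 CPM.

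Among genes with at least 100 CPM in the higher set, the largest ratios downward after Igfbp6 belonged to genes of several kinds. The tight junction gene Cldn3 had 368 CPM in high and 816 CPM in zero cells (2.22-fold lower, 2.09 to 2.35), and the keratin Krt18 had 385 and 681 CPM (1.77-fold lower, 1.67 to 1.88). Rac3, a small GTPase, had 50.1 and 105 CPM, Sepp1, the selenium carrier selenoprotein P, 81.9 and 162 CPM, and the selenium-binding protein gene Selenbp1 201 and 344 CPM. Rgcc, a regulator of the cell cycle, had 762 and 1225 CPM, the lysosomal nuclease gene Dnase2a 60.3 and 101 CPM, and the small heat shock protein gene Hspb1 101 and 166 CPM.

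Of 33 measured AT1 identity genes, 2 were at least 1.5-fold higher, Sema3e and Vegfa, and 3 lower, with a median log2 ratio of 0.04. The 3 lower genes were Igfbp6 and the cytochrome P450 genes Cyp4b1, at 17.9 CPM in high and 34.0 CPM in zero cells, and Cyp2b10, at 9.78 and 19.8 CPM and named after its values were seen. Of 24 measured AT2 genes, 1 was higher and 7 lower (median log2 ratio -0.13), against 5.9% higher and 4.16% lower over all genes. The gene higher was Lyz2, a lysozyme gene at 17.1 and 8.30 CPM, named after its values were seen. The surfactant gene Sftpc had 891 and 879 CPM, with 73.6% and 73.0% of its UMIs in 5 cells. Muc1, a membrane mucin of AT2 cells, had 16.3 and 43.1 CPM (2.64-fold lower, 2.01 to 3.50) and Napsa, a protease that processes surfactant protein, 52.6 and 83.0 CPM. Slc34a2, the phosphate transporter of AT2 cells, had 19.4 and 43.9 CPM, but 5 cells held 85.3% and 92.1% of its UMIs in high and zero cells.

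Immediate early genes, which cells induce within minutes of stimulation or of tissue dissociation, were in part lower in Igfbp2-high cells. Of 21 measured members, 0 were higher and 5 at least 1.5-fold lower, with a median log2 ratio of -0.39 and 19 of 21 below 1. Over all genes 5.9% were higher and 4.16% lower, with a median of 0.04. Btg2, an antiproliferative gene, had 398 CPM in high and 629 CPM in zero cells (1.58-fold lower, 1.49 to 1.68), and the transcription factor Klf4 81.9 and 126 CPM (1.53-fold lower, 1.34 to 1.75). Cells among the top 20% of the library by immediate early transcripts made up 12.5% of high and 26.1% of zero cells. Without those cells Ctgf, Plod2, Pcolce, Bdnf and Lox kept log2 ratios of 1.38, 1.51, 0.83, 1.86 and 1.40, against 1.35, 1.44, 0.86, 1.89 and 1.39 with them. Of 10 measured glucocorticoid response genes 0 were higher and 1 lower (median log2 ratio -0.40), and the list includes Tsc22d3, the glucocorticoid-induced leucine zipper gene, with 131 and 172 CPM.

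Most of the remaining lists stood near the median of all genes (0.04), of which 5.9% were higher and 4.16% lower. Caveola genes had 0 of 8 at 1.5-fold in either direction (median log2 ratio -0.09), with Cav2 at 396 CPM in high and 449 CPM in zero cells. Actin and adhesion genes had 1 of 30 higher (0.06), with the integrin gene Itgb6 at 172 and 126 CPM. Lung transcription factors had 0 of 23 higher and 1 lower (-0.02), namely Tead2, a TEAD partner of YAP, at 11.8 and 20.3 CPM. Genes of TGF-beta and BMP response had 3 of 21 higher and 3 lower, with Id2, a BMP-induced inhibitor of helix-loop-helix factors, at 222 and 360 CPM and Tgfb2 at 210 and 141 CPM. Among 17 genes for antigen presentation and interferon response 1 was higher and 3 were lower, with B2m at 237 and 312 CPM. Cell cycle genes had 1 of 9 higher and 0 lower. Imprinted and perinatal growth genes had 1 of 18 higher, Peg3 at 37.5 and 19.004 CPM, with a median log2 ratio of 0.26.

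**Figure D3:**
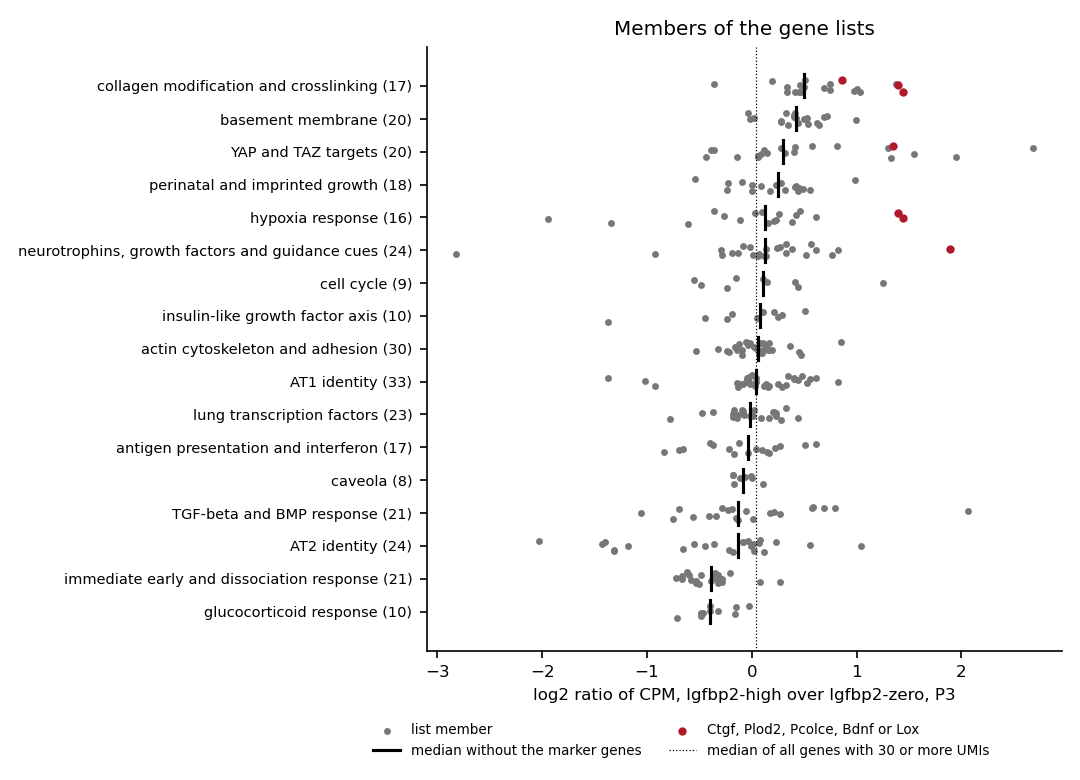
Log2 ratio of CPM, Igfbp2-high over Igfbp2-zero cells at P3, for each member with at least 30 UMIs of the 17 gene lists, with the number of members in parentheses. Black bars are medians without the marker genes, 0.50 for collagen modification at the top and -0.40 for glucocorticoid response at the bottom, and the dotted line is the median of all 9720 genes at 0.04.

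Many of the genes picked above for their ratio were also graded between the ends of Igfbp2. Ager-passing cells of at least 6000 UMIs were divided into those with 0 Igfbp2 (464 cells) and 5 levels of 344 or 345 cells each. Ctgf averaged 233, 261, 337, 367, 489 and 599 CPM from level 0 to level 5, Plod2 51.9, 65.2, 83.6, 92.1, 119 and 144 CPM, and Fjx1 27.3, 37.7, 52.1, 60.4, 79.8 and 115 CPM. Lox, Kcne2, Cald1, Col5a2, Col4a1, Col4a2, Sema3e and Vegfa also had a higher level at each step, though Vegfa had 649 CPM at both level 3 and level 4. Fras1 did not, with 115 CPM at level 2 and 111 CPM at level 3. Bdnf had its largest steps at the ends, with 18.5 CPM at level 0, 39.6 at level 1, 51.5 at level 4 and 76.9 CPM at level 5. Pcolce was level between levels 0 and 1 (89.1 and 89.4 CPM) and reached 167 CPM at level 5. Cldn3 was lower at each step, with 816 CPM at level 0 and 352 CPM at level 5, and so was Igfbp6, with 151 CPM at level 0 and 52.0 CPM at level 5. Rac3 was not lower at each step, with 64.0 CPM at level 3 and 67.7 CPM at level 4. Ager lay between 16325 and 16830 CPM at all levels, and Hopx between 1023 CPM at level 0 and 931 CPM at level 5. Xist was higher at each step too, with 224 CPM at level 0 and 424 CPM at level 5, and the median depth of a level ran from 7156.5 to 8761.5 UMIs.

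**Figure D4:**
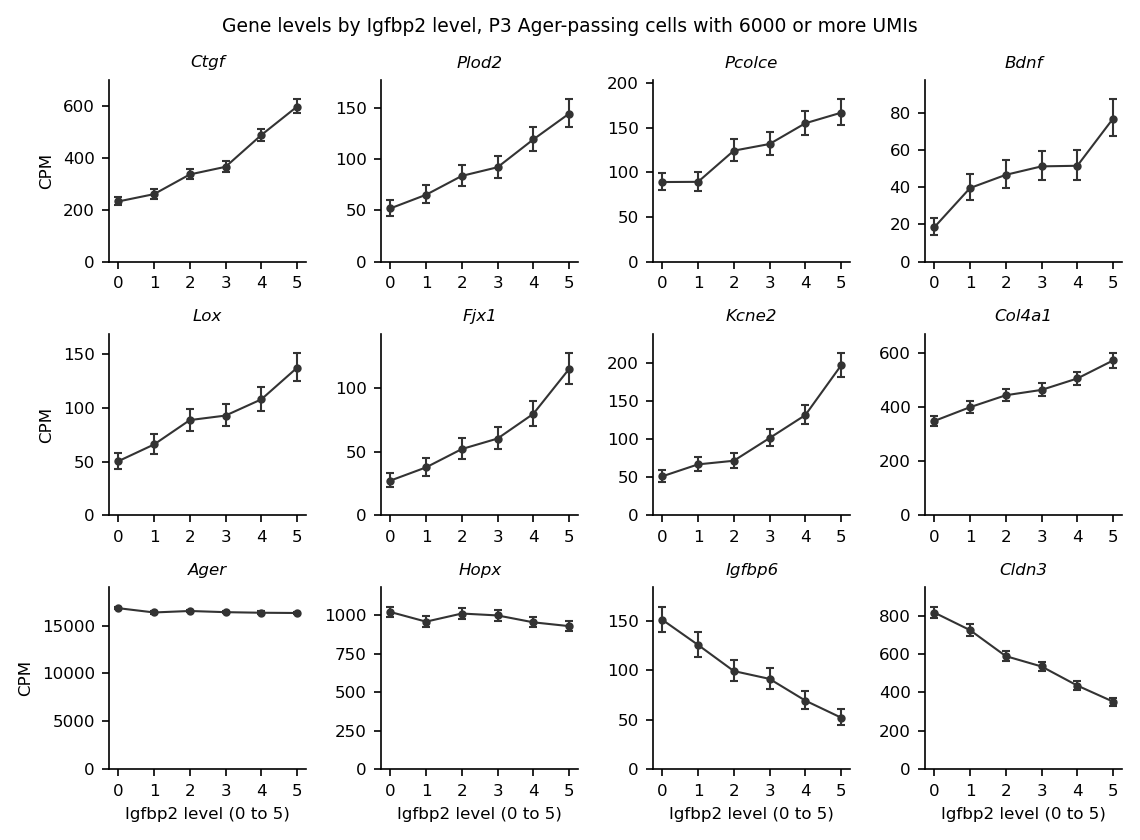
CPM of 12 genes (linear axes from 0) in Ager-passing P3 cells of at least 6000 UMIs, grouped by Igfbp2 into level 0 (no Igfbp2 UMI) and levels 1 to 5, with exact 95% Poisson intervals for counting error only. Ctgf, Plod2, Fjx1 and Kcne2 climb with the level, Ager changes little, Hopx is somewhat lower at level 5 than at level 0, and Igfbp6 and Cldn3 decline.

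Inside the Igfbp2-high cells the gradient continued for some genes and levelled for others. The 289 cells above the median Igfbp2 of the high cells had 82.9 CPM of Bdnf and the 289 below it 53.5 CPM (ratio 1.55, 1.24 to 1.94). Kcne2 had 214 and 137 CPM (1.56, 1.36 to 1.80) and F3 1110 and 848 CPM (1.31, 1.24 to 1.39). Lox, in contrast, had 135 and 130 CPM (1.04, 0.891 to 1.22) and Col5a2 169 and 156 CPM (1.08, 0.935 to 1.24), with intervals that include 1. High cells with a Bdnf UMI (165) were set against those without (413). Ctgf had 685 CPM with and 548 CPM without Bdnf (1.25, 1.16 to 1.35) and Kcne2 216 and 158 CPM (1.37, 1.19 to 1.57), while Pcolce had 166 and 160 CPM (1.04, 0.891 to 1.21) and Lox 142 and 128 CPM (1.11, 0.936 to 1.31).

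The differences were present among cells with Xist UMIs alone and among cells with Y-linked UMIs alone. The 213 high and 182 zero cells with neither, and the 6 and 9 with both, were left out here. Among cells with Xist and no Y-linked UMIs (275 high and 151 zero), Ctgf had 495 CPM in high and 247 CPM in zero cells (ratio 2.00, 1.77 to 2.28), Plod2 155 and 55.1 CPM (2.81, 2.16 to 3.70) and Bdnf 68.9 and 18.9 CPM (3.64, 2.34 to 5.89). Among cells with Y-linked and no Xist UMIs (84 high and 122 zero), Ctgf had 657 and 215 CPM (3.05, 2.60 to 3.60), Plod2 133 and 49.8 CPM (2.67, 1.89 to 3.83) and Bdnf 66.6 and 11.7 CPM (5.68, 2.98 to 11.7). Of 46 named genes past the 1.5-fold size, 45 kept their direction among the Xist-carrying cells, the exception being Slc34a2, and 45 among the Y-carrying cells, the exception being Socs3. The 46 were picked in sets that contain these cells, so much of this agreement was given. No share over all counted genes stands beside it.

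At P15 and P60 the split could not be made in the same way, because few cells lacked Igfbp2. After thinning, it was detected in 86.4% of P15 and 95.7% of P60 Ager-passing cells, and only 38 P15 cells and 1 P60 cell combined 0 Igfbp2 with 6000 UMIs. The top and lowest 20% by Igfbp2 among cells of at least 6000 UMIs were compared instead at each age, a choice made after the data were seen, with 437 cells in each set at P3, 184 at P15 and 105 at P60. Igfbp2 itself had 1993 and 0 CPM in the top and lowest cells at P3, 4716 and 295 CPM at P15 and 4183 and 727 CPM at P60, so the contrast in Igfbp2 was smaller at P60.

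Ctgf was higher in the top cells at each age, with 581 and 230 CPM at P3 (ratio 2.53), 714 and 472 CPM at P15 (1.51, 1.37 to 1.67) and 585 and 242 CPM at P60 (2.42, 2.05 to 2.86). Lox was too, with 134 and 50.4 CPM at P3 (2.66), 98.8 and 28.3 CPM at P15 (3.49, 2.43 to 5.11) and 33.8 and 13.1 CPM at P60 (2.58, 1.25 to 5.72), although its level was low by then. Plod2 had ratios of 2.80, 1.76 and 1.49 and Bdnf of 3.94, 1.48 and 1.45 at P3, P15 and P60, with all 6 intervals above 1. Pcolce had 167 and 89.6 CPM at P3, 282 and 204 CPM at P15 (1.39, 1.19 to 1.62) and 117 and 111 CPM at P60, where the interval of its ratio ran from 0.784 to 1.41. Krt18 was lower in the top cells at each age, with 384 and 679, 272 and 492, and 374 and 581 CPM. Kcne2, 3.53 times as high in the top cells at P3, had 23.6 and 25.3 CPM at P15 and 17.5 and 9.54 CPM at P60, and both later intervals include a ratio of 1. Whether these ratios differ between ages was not tested, as each age is 1 library. AT2 genes were lower in the top cells at P15, as given below, and their part in the P15 ratios was not tested.

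**Figure D5:**
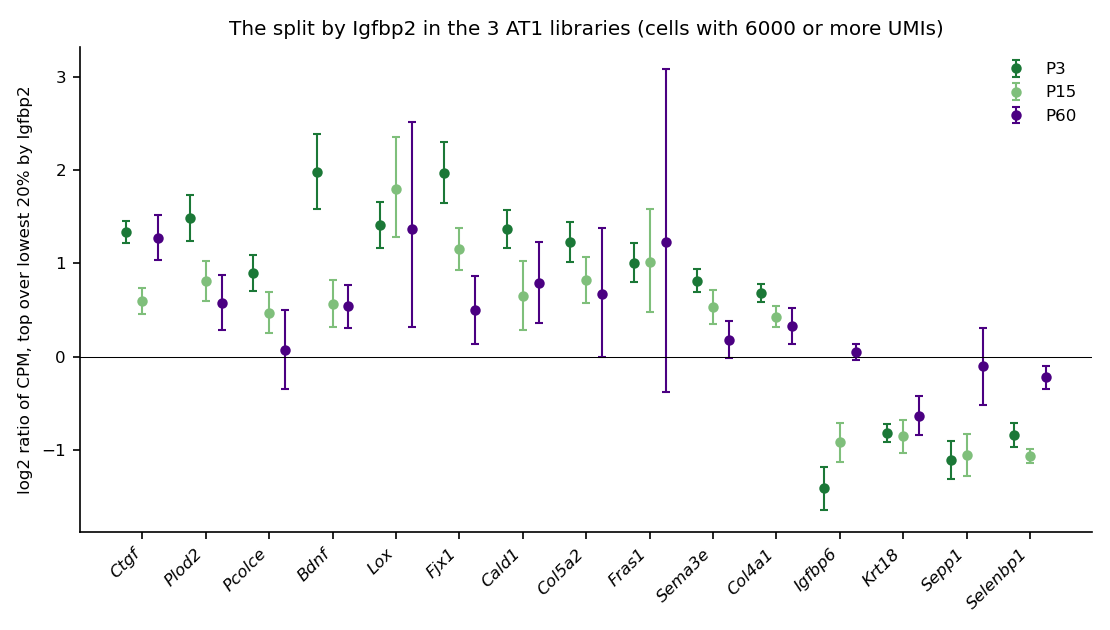
Log2 ratio of CPM, top over lowest 20% of Ager-passing cells by Igfbp2 (at least 6000 UMIs), for 15 genes in the P3, P15 and P60 AT1 libraries, with exact 95% intervals for counting error only. Ctgf, Plod2, Bdnf, Lox and Fjx1 lie above 0 and Krt18 below 0 at all 3 ages, while Igfbp6 is below 0 at P3 and P15 and at 0.05 at P60.

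The wider gene set of P3 was then looked up at P15 and P60. Among all genes with 50 CPM in the higher set, the top and lowest cells differed at 1.5-fold for 2.27% higher and 1.32% lower at P3, 3.92% and 4.63% at P15, and 2.21% and 4.04% at P60. With the 38 Igfbp2-zero cells of P15 in place of the lowest 20%, 9.96% were higher and 11.4% lower. Of the 60 genes higher at P3 other than Igfbp2, 56 had at least 30 UMIs at P15, of which 28 were at least 1.5-fold higher and 1 lower (median log2 ratio 0.58), where the 7442 genes at that depth had 6.96% higher, 7.23% lower and a median of 0.01. At P60, 51 were measured, 7 higher and 1 lower (median 0.25), against 4.45% higher, 7.1% lower and a median of -0.03 over all 6286 genes. Of the 35 lower genes, 34 were measured at P15 with 20 lower and 1 higher (median -0.74), and 26 at P60 with 2 lower and 0 higher (median -0.13). At P3 itself the same split and depth gave 5.79% of all genes higher and 4.46% lower. Fewer cells stood behind the P60 values, with 105 in each set.

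By list, collagen modification genes without the markers had 3 of 15 higher and 0 lower at P15 (median log2 ratio 0.42) and 1 of 11 higher at P60 (0.20). Among 19 basement membrane genes 5 were higher and 1 lower at P15 (0.44), and 0 of 17 passed in either direction at P60 (0.24). YAP and TAZ targets without Ctgf had 2 of 17 higher and 1 lower at P15 (-0.10) and 0 of 16 at P60 (0.05). AT2 genes had 0 of 17 higher and 12 lower at P15, with a median of -2.55, against a median of -0.16 for the same split at P3. The lowest P15 cells by Igfbp2 carried more AT2 transcripts than the top cells, and Plod2, Bdnf and Lox had 0 UMIs in the AT2 library. The part of the AT2 transcripts in the P15 ratios was not tested. Immediate early genes had 1 of 20 higher and 11 lower at P15 (-0.62). Igfbp6 was lower in the top cells at P15, with 196 and 371 CPM (1.89-fold lower), and level at P60, with 2563 and 2481 CPM.

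For genes that were higher in P3 Igfbp2-high cells, the later AT1 libraries lay on either side of the P3 sets. Levels below are CPM of separately made libraries, set side by side without a test. The P15 and P60 Ager-passing cells had 1873 and 2003 CPM of Igfbp2, close to the 1917 CPM of the P3 high cells, against 0 CPM in the zero cells. For Bdnf the later levels lay beyond both P3 sets, with 68.5 and 18.5 CPM in P3 high and zero cells and 227 and 376 CPM at P15 and P60, and Plod2 had 302 and 250 CPM at P15 and P60. Lox had 132 and 50.3 CPM in P3 high and zero cells. Its later levels were 59.2 CPM at P15, between the P3 sets, and 24.2 CPM at P60, below both. F3 had 321 and 289 CPM at P15 and P60, below the 558 CPM of the P3 zero cells. Of the 60 higher genes, the P15 level lay above both P3 sets for 21, between them for 19 and below both for 20, and the P60 level for 19, 12 and 26, with 3 not listed. For the 35 lower genes the counts were 12, 6 and 17 at P15 and 9, 6 and 19 at P60, with 1 not listed. No share over all counted genes stands beside these counts, so they are descriptions only. Malat1 alone had 36537 CPM in P3 high cells, 66510 CPM at P15 and 157800 CPM at P60, which enters the CPM of all other genes. Igfbp6, lower in P3 high cells, had 292 CPM at P15 and 2700 CPM at P60, whereas Cldn3, also lower in high cells, had 29.0 and 2.80 CPM.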

How the data were processed

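Transcripts of single cells were measured in 4 libraries, 1 per group, of AT1 cells at P3, P15 and P60 and AT2 cells at P60. The deposited values are natural log values, ln of 1 plus a cell's UMIs scaled to a sum of 10000, as tested on the files. Cell Ranger 1.3.1, Seurat 2.0.0 and the builds mm10 and hg19 are named per the submitters' processing notes, and the role of hg19 and the filters on cells are not given there. Unlogging gave whole UMIs for 100% of values within a tolerance of 0.05. No doublet caller was run, and cells with markers of another type were left out in an alternative.

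The UMIs of each set of cells were summed and given as CPM of all listed genes, and ratios carry exact conditional Poisson intervals (95%) for counting error only. With 1 library per group there is no test between groups and no p-value. Genes were counted at 1.5-fold with 50 CPM in the higher set and 30 UMIs over both sets, and list members with 30 UMIs. For shares of cells with a UMI, every cell was thinned to 3000 UMIs, and shallower cells were left out (0 at P3, 535 at P15, 234 at P60 and 240 in the AT2 library). The procedure was checked on simulated data. Genes named are the 6 markers, the 12 largest ratios in each direction at 100 CPM, and up to 4 members per list at 20 CPM, and others are said to be named after their values were seen. The members and lists were chosen with earlier results of these data known. Of 74 named genes 73 were placed in GENCODE and 62 had a RefSeq promoter window. Alternatives varied the sets, the scaling, the minimums and the cells kept. Computation used Python 3.11.15, numpy 2.4.6, scipy 1.17.1, pandas 2.3.3 and matplotlib 3.10.9.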

Additional observations from a re-analysis of the deposited data

Results flagged for a closer look

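Fos, an immediate early gene, had opposite directions at the later ages. In the top and lowest 20% of cells by Igfbp2 it had 304 and 704 CPM at P15, a log2 ratio of -1.21, and 166 and 77.5 CPM at P60, a log2 ratio of 1.09. The difference between the ages was not tested, as each is 1 library. At P3 it had 1934 and 2671 CPM.

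Igfbp2 was also present in a few cells of the AT2 library. It was found in 21 of 2093 cells (1.00%, 0.622 to 1.53, exact binomial), with 48 UMIs in all and at most 11 in a cell. The summed UMIs of these 21 cells gave 1119 CPM of Hopx, against 14.02 CPM in the other 2072 cells. Pdpn had 367 and 1.66 CPM, and Cav1 188 and 5.55 CPM. Not all of the 21 cells held these transcripts. Hopx was detected in 61.9% of them, Pdpn in 23.8% and Cav1 in 14.3%. In the other 2072 cells the shares were 6.23%, 0.82% and 1.69%. Sftpc, which AT2 cells make, had 101892 CPM in the 21 cells and 134752 CPM in the other cells. Ctgf rested on 6 UMIs, at 53.7 and 1.17 CPM. Whether these barcodes hold more than 1 cell was not tested.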

How the results depend on the processing

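The 73 named genes other than Igfbp2 were recomputed under 16 alternatives. Of 1168 values, 1002 stayed within the counting interval of the reported value, 164 left it and 2 changed direction. These were the log2 ratio of Slc34a2 at P3 among Xist-carrying cells (2.54) and the log2 ratio of Socs3 at P3 among Y-carrying cells (0.0357), and the cause was not tested. The log2 ratio ranged from 1.00 to 1.67 for Ctgf, 1.29 to 1.75 for Plod2, 0.61 to 1.07 for Pcolce, 1.72 to 2.51 for Bdnf and 1.06 to 1.52 for Lox.

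Counts moved more than single genes. Against 61 higher and 35 lower genes (63.5% of them higher), dropping the Ager minimum gave 123 and 178 (40.9% higher). A higher depth minimum for zero cells, which left 129, gave 77 and 75 (50.7%). Thinning to 3000 UMIs gave 112 and 55, Y-carrying cells alone 155 and 116, a minimum of 20 CPM 158 and 104, and a minimum of 100 CPM 32 and 14. Lower genes numbered 64 with the top 10% of cells, 54 when totals left out haemoglobin, mitochondrial and ribosomal protein genes, and 53 among Xist-carrying cells. At P15, Ctgf had a log2 ratio of 1.16 over the 38 Igfbp2-zero cells, 0.67 over the lowest 20% and 0.60 with 6000 UMIs in both sets, and Plod2 1.43, 0.81 and 0.81. At P60 only 1 zero cell was left, so the lowest 20% stood in. No paired analysis was possible because each group is 1 library.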

Other observations

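The genes below were chosen after their values were seen. The chaperone gene Hsp90b1 had 500.2 CPM in Igfbp2-high and 326 CPM in Igfbp2-zero cells (ratio 1.53, 1.43 to 1.64), the ribosome-binding protein gene Rrbp1 219 and 141 CPM (1.56, 1.40 to 1.73) and Stt3b, a catalytic subunit for N-glycosylation, 91.1 and 59.4 CPM (1.53, 1.303 to 1.81). Ndnf, a secreted factor first known from neurons, was abundant, with 1116 and 624 CPM (1.79, 1.70 to 1.88), and was higher at each Igfbp2 level. Cldn4, a tight junction gene like Cldn3, had 28.7 and 92.1 CPM, 3.20-fold lower (2.63 to 3.93) in Igfbp2-high cells, a larger ratio than that of Igfbp6 at a level under the 100 CPM asked of genes named by size.

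Lyz1, a lysozyme gene, had 93.8 CPM in Igfbp2-high and 21.1 CPM in Igfbp2-zero cells, but 5 cells held 88.7% and 51.9% of its UMIs. H2-Q2, of the same family as H2-Q1, had 61.8 and 27.3 CPM (2.26, 1.80 to 2.86) and carries the same uncertainty of paralogs.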
